A study of Mus musculus with 4 samples.

Results

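The regions described here are stretches of the mouse genome in which methylated DNA was called in both WT islet libraries and in neither βRapKO library, named WT-only regions below. They were selected on the peak calls themselves. Peaks of the 4 libraries on chromosomes 1 to 19 were joined where they overlapped by at least 1 bp, and a joined region was kept when both WT files and neither βRapKO file held a peak in it. Of 180857 joined regions, 7580 met this rule, or 4.19%. The tags and scores of these regions are therefore given as a description without a test. MeDIP-seq had been carried out on islets of mice 8 weeks old, with 2 WT libraries (Raptor lox/lox, no Cre) and 2 βRapKO libraries (Raptor lox/lox; RipCre), all labelled C57BL/6. Both genotypes carried the floxed Raptor allele. Cre was driven by the rat insulin promoter, which is active in beta cells, whereas an islet also holds alpha, delta and other cells. The RipCre mice came from a mixed stock and the WT mice were Cre-negative littermates, so Cre itself and any DNA inherited with it cannot be told apart from the loss of Raptor. The labels do not say whether a library came from 1 animal or several, so p-values measure only the spread between these libraries. DNA libraries carry no expression, and the islet label could not be checked against marker genes.

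DNA methylation in mammals sits mostly on the cytosine of CpG dinucleotides, where it is set by DNMT3A and DNMT3B and copied at replication by DNMT1. Most of the genome is methylated, active promoters with many CpGs are usually free of it, and transposable elements are usually covered by it. In MeDIP-seq an antibody against 5-methylcytosine pulls down sheared DNA, so that tags pile up where methylated CpGs are dense. Raptor is the scaffold of mTORC1, a kinase complex that couples nutrients and insulin signalling to protein synthesis and cell growth, and beta cells are the insulin-producing cells of the islet.

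A few WT-only regions are shown by the central part of their reference sequence, as examples that do not span the range of these regions. Over the whole region, their CpG density ran from 1.22 per 100 bp (Rptor) to 2.67 (2200002J24Rik). All WT-only regions ran from 0 over a median of 1.49 to 6.75. The 2200002J24Rik and Ttyh2 windows lay just upstream of a gene start. The Pyy and Syt7 windows lay in genes of a peptide hormone and of exocytosis, and the Rptor window lay in the gene that was deleted in beta cells. Sequences are the plus strand of GRCm38 from RefSeq, written 5′ to 3′ in lower case, and capitals mark each CG.
2200002J24Rik (chr7:30697431-30697730): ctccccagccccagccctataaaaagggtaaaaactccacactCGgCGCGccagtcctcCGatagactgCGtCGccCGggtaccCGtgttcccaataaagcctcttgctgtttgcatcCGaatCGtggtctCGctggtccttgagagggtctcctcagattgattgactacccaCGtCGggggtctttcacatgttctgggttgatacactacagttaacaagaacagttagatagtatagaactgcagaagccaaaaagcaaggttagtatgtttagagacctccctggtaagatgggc
Ttyh2 (chr11:114674602-114674901): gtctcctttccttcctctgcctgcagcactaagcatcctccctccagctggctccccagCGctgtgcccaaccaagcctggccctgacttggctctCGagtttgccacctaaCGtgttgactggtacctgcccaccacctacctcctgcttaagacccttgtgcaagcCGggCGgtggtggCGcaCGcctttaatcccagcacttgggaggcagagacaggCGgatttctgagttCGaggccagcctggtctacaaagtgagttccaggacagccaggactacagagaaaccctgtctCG
Pyy (chr11:102107501-102107700): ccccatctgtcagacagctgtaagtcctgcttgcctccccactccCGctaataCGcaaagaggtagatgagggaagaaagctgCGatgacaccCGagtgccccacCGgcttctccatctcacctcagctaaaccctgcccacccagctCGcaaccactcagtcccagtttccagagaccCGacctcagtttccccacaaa
Syt7 (chr19:10395815-10396114): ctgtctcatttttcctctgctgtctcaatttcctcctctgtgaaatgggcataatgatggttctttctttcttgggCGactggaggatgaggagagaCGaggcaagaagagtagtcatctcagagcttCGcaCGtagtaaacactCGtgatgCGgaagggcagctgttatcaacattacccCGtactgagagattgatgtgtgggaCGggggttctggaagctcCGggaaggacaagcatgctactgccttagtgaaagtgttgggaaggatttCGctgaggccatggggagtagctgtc
Rptor (chr11:119639745-119640044): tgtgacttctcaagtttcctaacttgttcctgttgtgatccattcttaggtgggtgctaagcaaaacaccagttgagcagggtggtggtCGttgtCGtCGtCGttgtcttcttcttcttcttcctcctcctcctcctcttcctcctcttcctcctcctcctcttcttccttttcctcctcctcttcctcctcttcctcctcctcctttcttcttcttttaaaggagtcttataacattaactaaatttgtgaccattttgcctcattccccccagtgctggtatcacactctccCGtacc
The 2200002J24Rik window held 13 CG dinucleotides in 300 bases and the Ttyh2 and Syt7 windows held 10 each. The Rptor window held 5. The Pyy window held 7 in 200 bases.

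After removal of duplicates the WT libraries held 25585533 (replicate 1) and 31330751 tags (replicate 2), and the βRapKO libraries 29220997 and 29175287. MACS called 121186 and 151093 peaks in WT and 117638 and 119685 in βRapKO, so WT replicate 2 led in tags as well as peaks. Regions called in both βRapKO libraries and in neither WT library numbered 2876, or 1.59% of all regions, and the ratio of WT-only to βRapKO-only regions was 2.64. Pairs of libraries that mix the genotypes gave counts in the same range. WT replicate 2 with βRapKO replicate 2 alone shared 7555 regions, and WT replicate 2 with βRapKO replicate 1 shared 6363. The counts for WT replicate 1 were lower, at 2939 for its pair with βRapKO replicate 1 and 2850 for that with βRapKO replicate 2. All 3 pairs with WT replicate 2 thus lay above all 3 pairs without it. When only the 113933 top-ranked peaks of each library were kept, the 6 pairs lay between 4133 and 4837 regions, the WT-only count was 4495 and the ratio was 0.929. These 4495 regions overlapped 4343 of the 7580 WT-only regions, or 57.3%. The ratio was 1.35 without βRapKO replicate 1, 1.44 without βRapKO replicate 2, 1.57 without WT replicate 2 and 5.25 without WT replicate 1. A genotype left with 1 library then needed 1 call while the other still needed 2, which moves the ratio by construction. In windows of 500 bp, called where peaks covered at least 250 bp, 16197 windows were WT-only and 14785 βRapKO-only. With 2 libraries per genotype, the excess of WT-only calls is therefore given as a count and not as a difference between genotypes.

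**Figure D1:**
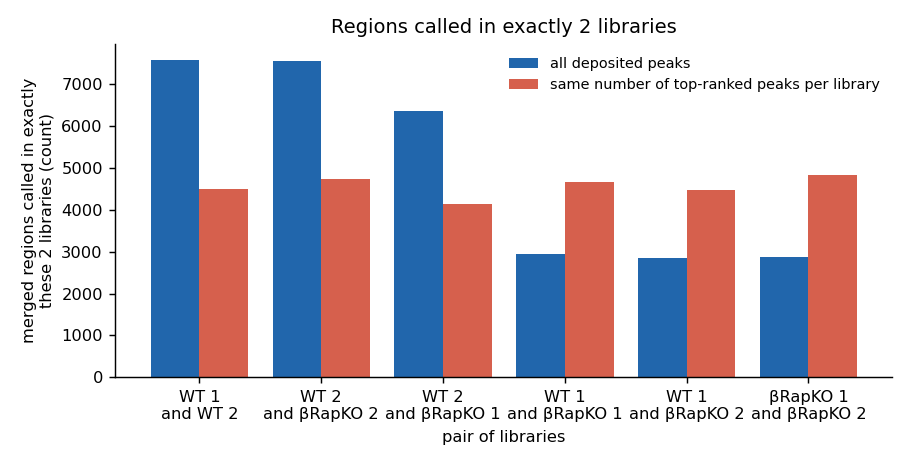
Number of joined regions (y axis, count) called in exactly the 2 libraries named on the x axis, with all deposited peaks (blue) and with the same number of top-ranked peaks in every library (red). With all peaks the 3 pairs that hold WT replicate 2 are the tallest (6363 to 7580), whereas with equal peak numbers all 6 pairs lie between 4133 and 4837.

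Most WT-only regions had weak peaks. The caller's score is -10 times the log10 of its p, with a floor of 50, and the lower of a region's 2 WT scores had a median of 60.1 and a range of 50 to 481. Among regions called in all 4 libraries, the median of the lower WT score was 116. The lower score reached 100 in 293 WT-only regions (3.87%), compared with 60.1% of the regions called in all 4 libraries. It reached 150 in 13 and 200 in 4. Of the regions that both WT libraries called, the share without any βRapKO peak was 27.7% at a lower score of 50 to 55, 15.5% at 60 to 70, 5.06% at 80 to 100 and 1.37% at 100 to 150. It was 0.0931% (9 of 9662) at 150 to 200 and 0.0253% (4 of 15792) above 200. The mirror image in βRapKO ran from 12.2% at 50 to 55 down to 0 of 12557 above 200. At the border of the rule, members in Rapgef2 (37 and 34 tags in WT replicates 1 and 2) and Stk32c (31 and 42 tags) entered with a lower score of 50.0. A region in Fmn1 with 33 and 34 tags stayed out because of 1 βRapKO peak just past the floor.

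**Figure D2:**
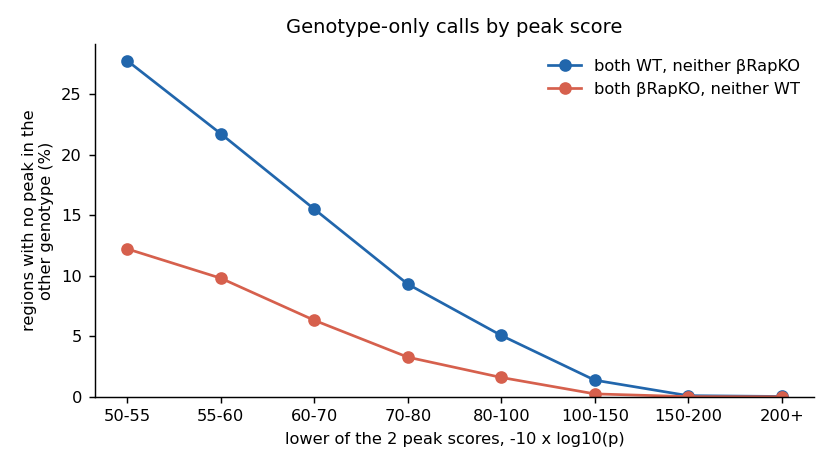
Share of regions called in both libraries of a genotype that lacked any peak in the other genotype (y axis, percent), by the lower of their 2 scores (x axis). Both curves fall with the score, from 27.7% (WT, blue) and 12.2% (βRapKO, red) in the weakest bin to 0.0253% and 0% in the strongest.

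The rule asks for joined peaks, and the 2 WT libraries placed theirs at nearly the same positions. In 7542 of the 7580 regions each library had 1 peak, and the median distance between the 2 summits was 24 bp, with 87.5% within 100 bp. In regions called in all 4 libraries this distance was also 24 bp. For the other pairs of libraries it was 26 to 29 bp, with 82.3 to 86.3% within 100 bp. Tags per region ranged from 23 over a median of 35 to 963 in WT replicate 1, and from 24 over a median of 40 to 959 in WT replicate 2. Per 1000000 tags of the library (CPM), the medians were 1.37 and 1.28. The 2 CPM values were within 2-fold of each other in 98.4% of the regions, and across regions the log2 tags had a Pearson correlation of 0.825. The regions share these 2 libraries and are not independent replicates. A region without a βRapKO peak carries no tag count for βRapKO in the deposited data, so no fold-change can be given for it. The nearest βRapKO peak lay at a median of 4001.5 bp, and within 500 bp of 601 regions (7.93%).

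WT-only regions covered 8.18 Mb. Their width ranged from 375 over a median of 979 to 7938 bp, shorter than the median of 1429 bp of regions called in all 4 libraries. For the other pairs of libraries the median width was 982 to 1039 bp. WT-only regions held a median of 14 CpGs, or 1.49 per 100 bp, with the middle of the distribution between 1.14 and 1.87. The median density was 1.76 in regions called in all 4 libraries and 1.58 over all regions. Among the mixed pairs it was 1.52 for WT replicate 2 with βRapKO replicate 2, and 1.33 and 1.35 for the pairs with WT replicate 1. Where regions of a like lower WT score were set side by side, the medians came closer. At a lower score of 50 to 60 it was 1.48 in WT-only regions and 1.53 in regions called in all 4 libraries, and at 100 to 150 it was 1.51 and 1.70. The share of all regions that was WT-only fell from 5.17% at 0.5 to 1 CpG per 100 bp to 1.96% at 3 to 4, and was 3.50% (43 of 1229) above 4. At this highest density, 105 regions were shared by WT replicate 2 and βRapKO replicate 2 alone, and 3 were βRapKO-only. The G and C content had a median of 46.3%. Repeat-masked bases made up a median of 20.8% of a WT-only region and 26.3% of a region called in all 4 libraries, and over 80% of the bases in 5.17% and 15.0% of them. For the other pairs of libraries the median ran from 20.3 to 31.1%, and the share of regions over 80% from 4.42 to 9.12%.

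**Figure D3:**
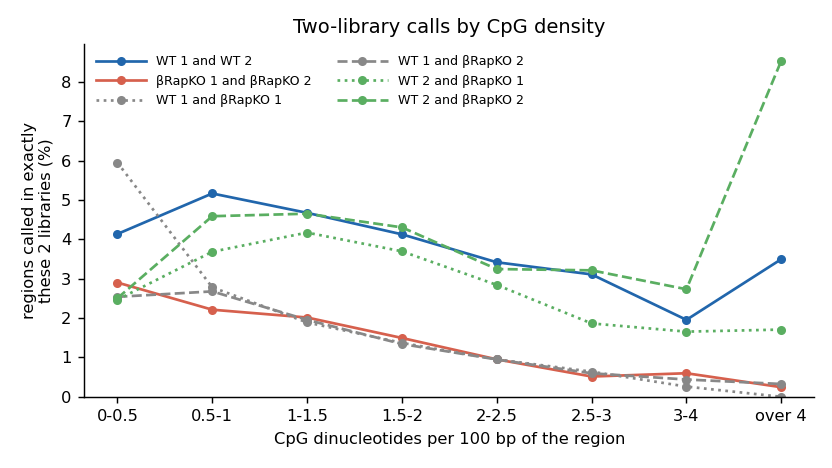
Share of all regions of a CpG density (x axis, CpGs per 100 bp) that was called in exactly the 2 libraries of each line (y axis, percent). The blue line of the WT-only regions falls from 5.17% at 0.5 to 1 CpG per 100 bp to 1.96% at 3 to 4, and above 4 it is at 3.50% while the pair of WT replicate 2 and βRapKO replicate 2 is at 8.54%.

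A small group of wide regions was chosen after the values were seen. Regions at least 3 kb wide with at least 70% repeat-masked bases numbered 2981 in all, and 2826 of them were called in all 4 libraries. Transposable elements of this length are usually methylated in adult tissue, but masking also covers tandem repeats, so these regions are not all transposable elements. Of these wide regions, 18 were WT-only and 0 were βRapKO-only. Among regions of at least 3 kb with fewer repeat-masked bases, 56 were WT-only and 29 βRapKO-only, and the mixed pairs with WT replicate 2 held 45 and 48. Of the wide regions with at least 70% repeat-masked bases, the mixed pairs held 9 (WT replicate 2 with βRapKO replicate 2), 8, 4 and 3. Larger numbers lacked a peak in a single library, with 46 absent from βRapKO replicate 2 alone, 18 from βRapKO replicate 1 alone, 18 from WT replicate 1 alone and 7 from WT replicate 2 alone. The lower WT score of the 18 ranged from 51.2 to 481, with a median of 109. In 13 of the 18 no βRapKO peak lay within 2 kb. For the pairs with WT replicate 2 and βRapKO replicate 1 this number was 3, for WT replicate 2 and βRapKO replicate 2 it was 1, and for the other pairs it was 0. Among regions that lacked a single library, 18 had no βRapKO replicate 2 peak within 2 kb and 10 no βRapKO replicate 1 peak. For WT replicates 1 and 2 these numbers were 6 and 3. All 13 of the WT-only group stayed WT-only with equal peak numbers per library. That setting only removed peaks, and their WT scores of at least 71.6 lay above its cutoffs, so this could not fail. Their tags ranged from 149 over a median of 368 to 708 in WT replicate 1, and from 186 over a median of 465 to 868 in WT replicate 2. These levels were above the medians of the wide regions called in all 4 libraries, which were 249 and 292 tags in WT and 276 and 282 in βRapKO. They were also wider, with a median of 4103 bp beside 3517 bp, and their median lower WT score was lower, at 130 beside 307. Reads from repeats can align to many copies, and the part of alignment in these calls was not tested.

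**Figure D4:**
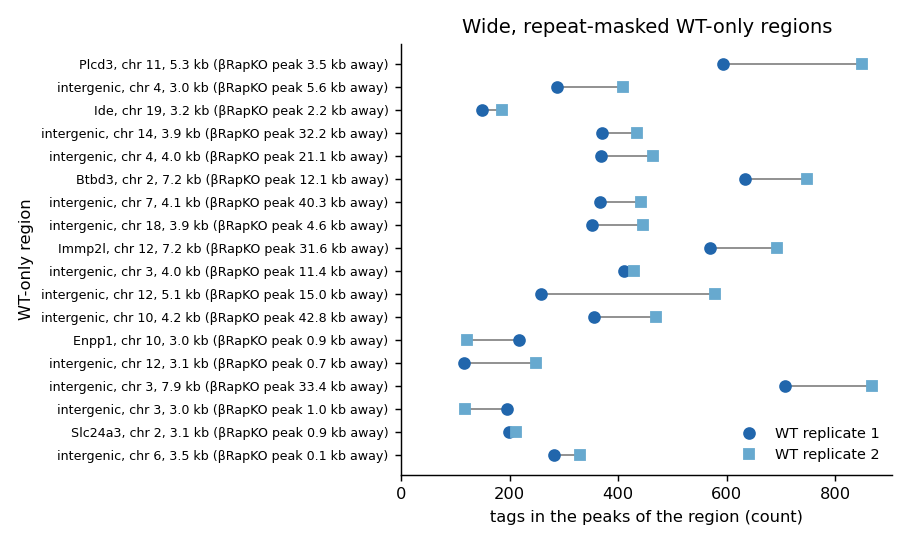
Tags in WT replicate 1 (circles) and WT replicate 2 (squares) in each of the 18 wide, repeat-masked WT-only regions (x axis, count), ordered from the highest lower score at the top; row labels give the gene or intergenic position, the chromosome, the width and the distance to the nearest βRapKO peak. The 13 regions with no βRapKO peak within 2 kb hold 149 to 708 tags in WT replicate 1 and 186 to 868 in WT replicate 2, the library with more tags, and per 1000000 tags WT replicate 2 is higher in 8 of them.

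The strongest of all WT-only regions was in this group. It covered chr11:103083690-103088999 in intron 1 of Plcd3, which encodes a phospholipase C that cleaves membrane phosphoinositides. It held 593 tags in WT replicate 1 and 850 in WT replicate 2, with scores of 502 and 481, and 200 CpGs. Its nearest βRapKO peak lay 3478 bp away. The next was intergenic, at chr4:39382297-39385339, with 287 and 408 tags and 95 CpGs. Other wide members lay in introns of Btbd3 (634 and 748 tags over 7.15 kb) and Immp2l (570 and 693 tags over 7.18 kb), with the nearest βRapKO peaks 12.1 and 31.6 kb away. The widest WT-only region, chr3:16792598-16800535, was intergenic and held 708 and 868 tags and 237 CpGs.

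The third strongest region, also in the wide, repeat-masked group, had no CpG at all. It lay in intron 11 of Ide, the gene of the insulin-degrading enzyme, at chr19:37298560-37301758, with 149 and 186 tags and scores of 224 and 260. Its sequence was a tandem repeat of 29 bases without a CG dinucleotide.
Ide repeat unit: aaaaaccagtcatgtacacaggtgtattt
The region held 86 exact copies of this unit, which covered 2494 of its 3199 bases. Only 3 WT-only regions held 0 CpGs, and the nearest βRapKO peak of the Ide region lay 2211 bp away. The peaks were called without an input library, and tags that do not depend on CpG methylation were not separated from those that do.

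The other strong regions were narrow. Olfr1057, an olfactory receptor gene, held a member of 414 bp in its intron 1 with 32 and 43 tags and scores of 206 and 261. Exon 4 of Vwa5b1 held one with 62 and 74 tags. Members in Rnf180, a ubiquitin ligase gene, and D630045J12Rik held 74 and 75 tags and 56 and 60 tags. A member in Pou6f1, the gene of a POU homeodomain transcription factor, held 66 and 83 tags and 20 CpGs. The remaining members of the 10 strongest were intergenic, on chromosome 13 (27 and 38 tags) and on chromosome 17 (30 and 34 tags). All 10 kept their WT-only call with equal peak numbers per library, an outcome that their high scores fixed in advance.

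By their midpoint, 3288 WT-only regions (43.4%) lay in introns of protein-coding genes, 3046 (40.2%) were intergenic, 749 (9.88%) lay in exons, 417 (5.50%) in long noncoding RNA genes and 80 (1.06%) in promoters, defined as 1000 bp upstream to 500 bp downstream of a gene start. Over all regions these shares were 41.2%, 42.7%, 9.36%, 5.85% and 0.935%. Exons held 6.19% of βRapKO-only regions and 8.87% and 8.69% of the mixed pairs with WT replicate 2. A gene or its upstream 2 kb overlapped 55.6% of WT-only regions and 53.0% of all regions. By chromosome, the WT-only share ran from 3.65% (chromosome 17) to 4.61% (chromosome 11).

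At promoters, 138 WT-only regions overlapped the window around the start of 143 genes. The strongest, upstream of 4933411K16Rik, held 35 tags in WT replicate 1 and 34 in WT replicate 2. The region at Izumo2, a gene of a sperm surface protein family, spanned its first 2 exons with 85 and 98 tags and 47 CpGs. The Ttyh2 region (47 and 56 tags), upstream of a gene of the tweety membrane protein family, lay 11757 bp from any βRapKO peak. The 2200002J24Rik region (96 and 112 tags) lay 497 bp from one. A region at Sphk1, which encodes a sphingosine kinase, held 76 and 104 tags. The promoter region shared by Sp110 and Sp140, genes of nuclear body proteins, held 260 and 219 tags. The region at Cnr1, the gene of a cannabinoid receptor, held 60 and 41 tags and 36 CpGs. The other members of the 10 strongest promoter regions lay at Sh3rf2 (41 and 44 tags), Zfp719 (28 and 38) and Gm11985 (35 and 49). Per 1000000 tags, WT replicate 2 was higher in 3 of these 10 regions.

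WT-only regions were spread thinly over genes. Of 16624 protein-coding genes with any region in their body or upstream 2 kb, 3200 (19.2%) held a WT-only region, and 2469 of these held exactly 1. Genes with a WT-only region had a median of 8 regions of any kind and a length of 67.3 kb, compared with 3 regions and 19.9 kb for the rest. The largest counts accordingly fell in very long annotated spans, with 32 of 611 regions in the predicted gene Gm20388 and 15 of 335 in Fgfr2, whose annotated span is 2961 kb. Auts2 held 12 of 134, Rbfox1, a neuronal splicing regulator gene, held 9 of 92, and Wwox held 8 of 123. Tshz2, a zinc finger homeobox gene, held 7 of 57, Magi1 7 of 76 and Foxp1, a forkhead factor gene, 7 of 82. Along the genome, 2078 of 2412 windows of 1 Mb held at least 1 WT-only region, with a median of 3 and a maximum of 13. The 3 fullest windows were chr2:169000001-170000000 (13 of 131 regions), chr7:144000001-145000000 (12 of 89) and chr3:51000001-52000000 (12 of 131).

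Gene groups were read against the share over all protein-coding genes, in which 4399 of 101024 regions (4.35%) were WT-only and 1.58% βRapKO-only. The targeted gene Rptor held 36 regions, of which 13 were called in all 4 libraries, 2 were WT-only and 0 βRapKO-only. The stronger lay in intron 1, at chr11:119639568-119640221, with 41 and 28 tags, and the other, at chr11:119728230-119729037, held 27 and 35 tags with a βRapKO peak 253 bp away. Peaks of methylated DNA do not show whether the floxed exon was deleted. Components and regulators of mTORC1 and mTORC2 held 11 WT-only regions of 248 (4.44%), in 10 of 33 genes. Besides Rptor these were the inhibitors Tsc2 (exon 20, 31 and 48 tags), Tbc1d7 (26 and 34) and Deptor (30 and 51), the GATOR1 subunits Depdc5 (36 and 32) and Nprl3 (35 and 31), the Rag GTPase gene Rragc (28 and 28), the Ragulator subunit Lamtor1 (41 and 46), the mTORC2 subunit Prr5 (46 and 77) and the lysosomal transcription factor Tfeb (38 and 47). Apart from Prr5, these members held between 26 and 51 tags in each WT library. Insulin and IGF signalling genes held 6 of 182 (3.30%), including Irs2 (31 and 45 tags), an adaptor of the insulin receptor, and Igf1r (85 and 77 tags).

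Genes of prohormone processing and exocytosis held 13 WT-only regions of 171 (7.60%), in 7 of 16 genes, beside 5 that were βRapKO-only. Pcsk1, the prohormone convertase that makes the first cuts in proinsulin, held a single region in all, and it was WT-only. This region lay in intron 6, with 39 tags in each WT library, scores of 91.8 and 112, and no βRapKO peak within 41114 bp. Pcsk2, the other convertase, held 3 WT-only regions of 9, the strongest with 24 and 26 tags. Cpe, which trims the cut peptides, held 1 of 6 (26 and 26 tags), and Pam, which amidates them, held 2 of 29. Syt7, a calcium sensor of exocytosis, held 2 of 10, the stronger in intron 1 with 42 and 49 tags. Rab27a, a GTPase of granule docking, held 1 of 5 (30 and 41 tags), and Ptprn2, a granule membrane protein gene, held 3 of 43. Among islet hormones and glucose sensing genes, 5 of 199 regions (2.51%) were WT-only and 9 were βRapKO-only. The only region at Pyy, the gene of peptide YY, was WT-only and spanned all its exons, with 221 and 256 tags, 74 CpGs and the nearest βRapKO peak 8977 bp away. The calcium channel genes Cacna1c and Cacna1d held 3 of 85 and 1 of 65.

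Disallowed and neonatal genes, which mature beta cells keep low, held 13 WT-only regions of 153 (8.50%), in 9 of 25 genes, and 2 βRapKO-only regions. The study named part of this list from its own samples, so the list is not independent of them. Hk1, the hexokinase with high glucose affinity, held 1 of 18, with 55 tags in WT replicate 1 and 70 in WT replicate 2. It overlapped exon 5, with its midpoint in an intron. Mylk, a myosin kinase gene, held 4 of 28, the strongest with 35 and 47 tags. Itih5, a matrix protein gene, held 2 of 12, the stronger with 39 and 76 tags and the nearest βRapKO peak 18241 bp away. This region also overlapped exon 5 with its midpoint in an intron. Acot7, an acyl-CoA thioesterase gene, held 46 and 57 tags in its member, and Cat, the catalase gene, 50 and 75. Igfbp4, an IGF-binding protein gene, held 114 and 131 tags, and Ndrg2 46 and 52. Gas6, a receptor ligand gene, held 36 and 54 tags and Fgf1, a growth factor gene, 46 and 63. In 16 genes of this list no region was WT-only.

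Beta cell transcription factor genes held 5 WT-only regions of 106 (4.72%). Glis3 held 3 of 46, the strongest in intron 2 with 42 and 40 tags, and Hnf4a held 1 of 14 (34 and 42 tags). Genes of alpha cell and progenitor regulators held 0 of 26. Among the genes of DNA methylation enzymes and readers, 2 of 98 regions (2.04%) were WT-only, in Tet3, a gene of an enzyme that oxidizes 5-methylcytosine (40 and 46 tags), and in Mbd2, a gene of a methyl-CpG binding protein (24 and 36 tags). Imprinted genes held 11 of 388 (2.84%), with the most tags at Mest (82 and 116) and Kcnq1 (65 and 70). Genes of the Wnt pathway held 11 of 299 (3.68%). These included the ligands Wnt2b (140 and 90 tags), Wnt5a (32 and 55) and Wnt7a (26 and 26), the receptor gene Lrp5 (45 and 51), the kinase gene Gsk3b (37 and 42) and the nuclear factors Tcf7 (74 and 73) and Tcf7l2 (125 and 118).

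Tags of all 4 libraries could be compared in regions near the WT-only regions, themselves selected on a peak in every library. The tags of a library were those in its own peaks of a region, so they also depend on peak width. Over all peaks, the median width was 1059 and 938 bp in WT replicates 1 and 2. It was 1102 and 1150 bp in βRapKO replicates 1 and 2. Of the 72519 regions called in all 4 libraries, 2685 lay within 5 kb of a WT-only region. With edgeR's quasi-likelihood test and Benjamini-Hochberg adjustment over all 72519, 0 of the 2685 passed an FDR of 0.05, as did 0% of all, and their lowest FDR was 0.380. At an unadjusted p under 0.05 there were 86 neighbours lower and 51 higher in βRapKO, beside 2851 lower and 1375 higher among all 72519. DESeq2 also called 0 neighbours, with 6 lower and 17 higher at that p, beside 357 and 584 among all. A fold-change above 1.5 was reached by 37 neighbours lower in βRapKO (1.38%, compared with 1.8% of all) and 31 higher (1.15%, compared with 1.3% of all). Both βRapKO values lay below both WT values in 22.5% of the neighbours and in 25.3% of all regions called in all 4 libraries, and above both in 13.2% and 11.7%. The neighbours had a median log2 fold-change, βRapKO over WT, of -0.036, beside -0.059 for all 72519 regions. The median log2 CPM of the neighbours was 1.25 and 1.24 in WT replicates 1 and 2, beside 1.18 and 1.26 in βRapKO replicates 1 and 2. The 2 genotypes overlapped (difference -0.028, two-sided exact permutation test, p = 1, smallest possible 0.333). Per kb of peak, the median of the neighbours was -0.15, beside -0.17 for all 72519 regions. The share lower in βRapKO was then 78.2% of the neighbours and 79.7% of all, compared with 56.3% and 60.7% without this scaling. The median turned positive with TMM normalization (0.026), with DESeq2 (0.026) and when libraries were scaled by their tags inside peaks (0.13). By distance, the median was -0.033 within 1 kb of a WT-only region, -0.0013 at 1 to 2 kb, -0.051 at 2 to 5 kb and -0.057 beyond 50 kb. Around βRapKO-only regions it was -0.12 within 1 kb.

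**Figure D5:**
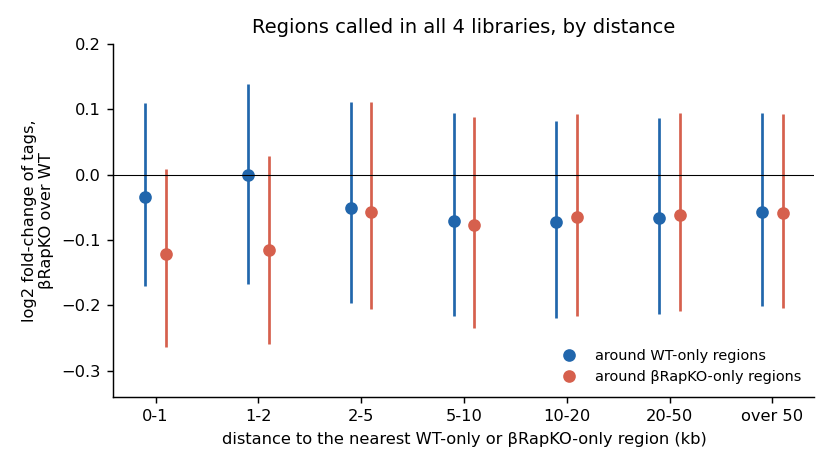
Log2 fold-change of tags, βRapKO over WT (y axis), in regions called in all 4 libraries, by distance to the nearest WT-only (blue) or βRapKO-only (red) region (x axis, kb), with points at the median and bars from the 25th to the 75th percentile over regions. The blue medians lie between -0.072 and -0.0013, and every bar around WT-only regions crosses 0.

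The neighbour with the smallest p was chr5:72564164-72567852, with 81 and 99 tags in WT and 193 and 190 in βRapKO, so that the groups did not overlap. Its log2 fold-change was 1.05 with an FDR of 0.380 in edgeR's test, and it lay 798 bp from a WT-only region. Among the 5 neighbours with the smallest p, 4 were higher in βRapKO, and the fifth, chr13:97118365-97120797, held 82 and 90 tags in WT and 36 and 41 in βRapKO. None of them passed the threshold in edgeR's test.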

How the data were processed

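Methylated DNA of islets was measured by MeDIP-seq in 2 WT and 2 βRapKO libraries, grouped by the genotype in the labels. The authors aligned reads with Bowtie2 2.2.5 to mm10 (the submitters' processing notes also list mm9) and called peaks in each library separately, without a control library. Per the file headers this used MACS 1.4.2, with p under 1e-05, no more than 1 tag at a position and the background estimated over 10000 bp (the notes give version 0.14.2). The deposited columns hold peak positions, a raw count of tags, a score (-10 times log10 of p) and a fold enrichment ratio over the local background, which is not reported. Since peaks without a control mark any pile-up of tags, repeats and copy number can enter.

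Peaks were joined at 1 bp of overlap and described by CpGs, G and C content and repeat masking from the RefSeq GRCm38 sequence, and by GENCODE M21 genes. Exons and introns were numbered along 1 principal transcript per gene. All 72519 regions called in all 4 libraries were tested with edgeR 4.0.16 (R 4.3.3), genotype alone, with the tags after removal of duplicates as library size, and DESeq2 1.42.0 served as an alternative. The test was also run on simulated counts, which did not model peak boundaries or the need for a peak in every library. Regions were named by rank of the lower WT score, among all members, at promoters and in each listed gene, beside the genes and windows with the most members. 1 listed gene is not reported here. The members and the gene lists were chosen with earlier results of these data known. Descriptions used Python 3.11.15, NumPy 2.4.6 and pandas 2.3.3. The alternatives were another overlap, gap, score, peak number, window, set of chromosomes, gene window, normalization, tag minimum or distance, a replicate block, and leaving out each library. The correlation of deviations of libraries with the same replicate number was 0.0464, so the numbers were not taken to pair the libraries. X and Y were left out of the main counts.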

Additional observations from a re-analysis of the deposited data

How the results depend on the processing

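The number of WT-only regions (7580) was 4682 with a score of at least 100 in all libraries (293 of the 7580 were among them, and 6.26% of the 4682 overlapped a member), 293 with that score asked of WT peaks alone, 4495 with equal peak numbers and 16197 in windows of 500 bp. It ran from 15407 to 31170 when a library was left out, since fewer libraries then had to be called or free of calls. The ratio to βRapKO-only regions (2.64) was 4.18 and 6.81 with the stricter scores (the second against βRapKO peaks held to the same score), 1.10 in windows and 0.929, in the opposite direction, with equal peak numbers. It ran from 1.35 to 5.25 with a library left out. At 100 in all libraries, mixed pairs holding WT replicate 2 counted 4487 (βRapKO replicate 2) and 3239 (βRapKO replicate 1). Those holding WT replicate 1 counted 1320 and 1157. With 100 asked of a pair's own peaks alone, these counts were 274, 153, 41 and 40. At both stricter scores, every pair with WT replicate 2 lay above every pair without it. The 4.18 and 6.81 are therefore not given as a difference between genotypes. The median CpG density (1.49 per 100 bp) was 1.69 with a score of at least 100 in all libraries and ran from 1.43 to 1.57 with a library left out. The share in a gene or its upstream 2 kb (55.6%) was 57.3% with that score and 57.6% with 5 kb upstream, and ran from 54.4 to 55.5% with a library left out. No neighbouring region passed the FDR in any of the 12 alternatives. Their median log2 fold-change (-0.036) was 0.026 with TMM, 0.026 with DESeq2, 0.13 with libraries scaled by their tags inside peaks and -0.15 per kb of peak, and ran from -0.077 to -0.014 with a library left out. The normalizations also moved all regions, whose median went from -0.059 to 0.0033 with TMM and 0.11 with tags inside peaks. With the replicate block the median was -0.033, with 0 calls, and the block changed no call. Beyond the effects of their own construction, the cause of these shifts was not tested.

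The weakest peaks of the libraries held 23 to 25 tags, and the median WT-only region held 35 and 40. A βRapKO library just under the threshold is not listed. WT replicate 1 had the fewest tags but more peaks than either βRapKO library. Autosomal peaks held 30.8% and 34.2% of the tags in WT, and 28.1% and 29.9% in βRapKO. The part of depth in the calls was not tested. In a leave-one-out fit the lone library of a genotype was assumed to vary like the others. A low-count filter below the peak caller's own was not possible.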

Other observations

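Larger gene families held WT-only regions at shares close to that of all protein-coding genes (4.35%). Potassium and calcium channel genes held 51 of 1252 regions (4.07%), collagen genes 19 of 500 (3.80%), chemoreceptor genes 22 of 474 (4.64%) and zinc finger genes 56 of 1567 (3.57%). The zinc finger genes held 10 βRapKO-only regions (0.638%). Hox genes held 1 region, which was not WT-only.

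Short motifs that contain a CpG were counted in the central 300 bp of each region, on both strands. CACGTG, bound by basic helix-loop-helix factors, was in 7.31% of WT-only regions and 7.32% of all regions. TGACGTCA, bound by CREB and ATF factors, was in 0.528% and 0.488%, and CCGGAAG, bound by ETS factors, was in 2.89% and 2.76%. No other use was made of these shares.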
